A study of Mus musculus with 12 samples.

Results

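Bleomycin was compared with PBS in alveolar type II (ATII) cells sorted from mice with floxed p300 alleles that were not labelled as p300 knockouts. The comparison used 6 of the 12 libraries of the series, 3 of the group Con and 3 of the group BLM, chosen by their sample titles, and each library came from 1 mouse. Con mice received PBS and BLM mice received 4 mg/kg bleomycin into the trachea. Both groups were negative for p300 knockout, and the titles name the Con libraries as wild type. The mice were of the line Spc-p300 f/f, in which a tamoxifen-inducible Cre recombinase under the surfactant protein C promoter acts on p300 alleles with LoxP sites around exon 9. The protocol shared by the samples gives an age of 8 weeks and 10 mg/kg tamoxifen. The study's sorting method instead gives an age of 8 to 10 weeks and names C57BL/6 mice beside the knockouts. The sources used here do not say for each sample whether these mice had tamoxifen or vehicle. The time from bleomycin to harvest of the sequenced cells was not given in the sources used here.

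Bleomycin breaks DNA, and a dose into the airways is a standard way to injure the mouse lung and bring on inflammation and then scarring. ATII cells make surfactant, the lipid and protein film that keeps alveoli open, and they are the progenitors of the thin alveolar type I (ATI) cells that line the gas exchange surface. During repair ATII cells are known to pass through a transitional state marked by keratin 8. In the same air spaces resident alveolar macrophages clear surfactant and dead cells, and after injury monocytes enter the lung and turn into macrophages with a different set of genes.

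RNA was read from its 3′ ends, so a gene is counted by fragments near its poly(A) tail and a count does not grow with gene length. The values below are CPM, counts relative to a library total scaled by the trimmed mean of M values (TMM), and they are given in the order of replicates 1, 2 and 3. Library totals ran from 7005005 to 11153154 counts, and 3 counts, used as the floor of detection in a library, corresponded to 0.216 to 0.439 CPM. These floors cover counting error only. BLM replicate 3 stood apart from the other 5 libraries. It had counts for 6847 genes, against 10246 to 13838 in the others, and its Spearman correlation with each of them over genes was 0.43 to 0.48, where the other 5 correlated with each other at 0.75 to 0.89. Its Rn45s share, the ribosomal RNA precursor, was 17.4% of counts, against 2.04% to 14.7% in the others. Xist, the RNA of the inactive X chromosome, had 0, 2.05 and 164 CPM in the BLM libraries and 0, 0 and 0 CPM in the Con libraries, and Ddx3y, a gene of the Y chromosome, had 115, 57.9 and 9.28 CPM and 114, 153 and 75.9 CPM, so that BLM 3 went against the rest in both. Fold changes and calls are therefore given with all libraries and again without BLM 3.

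The labelled cell type was checked against marker genes. The 2 antigens used for sorting were detected in all 6 libraries. Cd74 stood at 1232, 1588 and 443 CPM in Con and 1229.6, 2491 and 581 CPM in BLM, and Epcam at 190.5, 83.4 and 110.1 CPM in Con and 9.73, 39.6 and 264 CPM in BLM. The surfactant protein gene Sftpc, among the most abundant transcripts of an ATII cell, reached only 220.2, 617 and 129 CPM in Con, below the macrophage gene Chil3 at 5250.0, 5169 and 14069 CPM in the same libraries. The summed level of the ATII list was 3153, 4295 and 3488 CPM in Con and 1310.0, 2368 and 904 CPM in BLM, of which Lyz2, a lysozyme that macrophages also make, took 1108, 1088 and 2166 CPM and 365, 1022 and 7.198 CPM. That of the alveolar macrophage list was 21830, 19790 and 29770 CPM in Con and 7251, 10920 and 1025 CPM in BLM. Nkx2-1, a transcription factor that defines lung epithelium, stood at 4.31, 1.19 and 0 CPM in Con and 2.32, 0 and 0 CPM in BLM, and Ptprc, the pan-leukocyte antigen CD45, at 501, 444 and 647 CPM in Con and 207, 275 and 28.2 CPM in BLM. In all Con libraries and in BLM 1 and 2 the macrophage genes therefore outweighed those of ATII cells, which goes against the label, and the libraries are called Con and BLM below. BLM 3 had little of either list and instead had 701, 533 and 3810.0 CPM summed over pluripotency genes in the BLM order, where the Con libraries had 833, 808 and 574 CPM. Such sums can rest on a few members. The median log2 level of the tested pluripotency genes, less that of all tested genes, was -4.39, -4.34 and -4.3 in Con. In BLM it was -2.55, -2.25 and 7.3. In such bulk samples fewer cells of a type and less RNA per cell cannot be told apart, and the part of cell mixture in the gene changes below was not tested. Ep300, the floxed gene, had 134, 145 and 47.4 CPM in Con and 121, 100.3 and 34.2 CPM in BLM and passed no test, and since 3′ reads lie outside the floxed exon its level does not check for deletion.

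**Figure D1:**
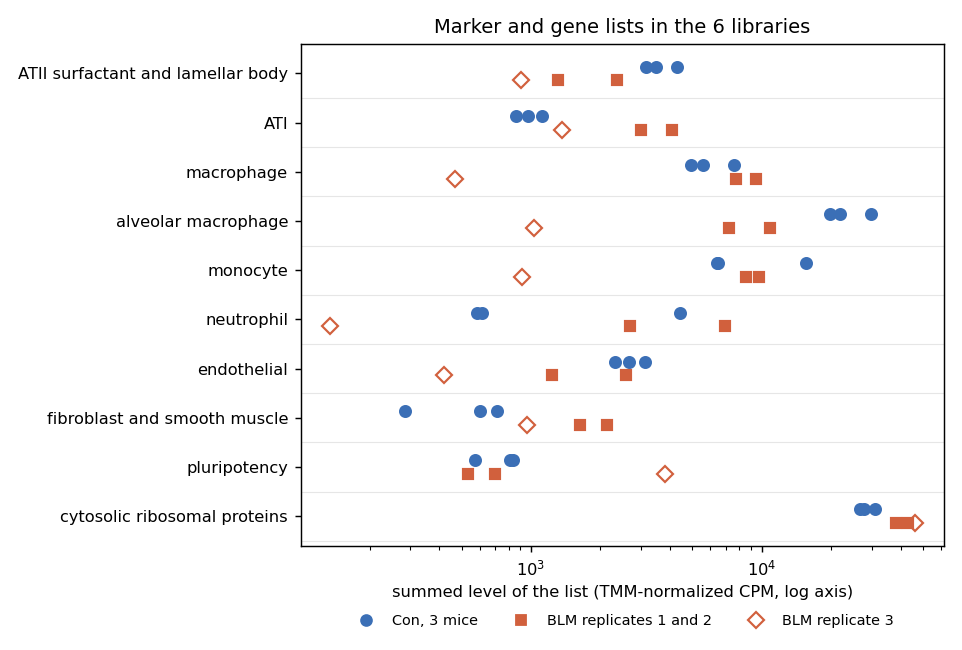
Summed level of selected gene lists in each of the 6 libraries, in TMM-scaled CPM on a log axis, with Con and BLM replicates as separate points. The alveolar macrophage list lay between 19790 and 29770 CPM in Con and at 7251, 10920 and 1025 CPM in BLM, and BLM 3 stands apart with 3810 CPM of pluripotency genes.

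A gene was called when it differed by more than 1.5-fold with an unadjusted p under 0.05 in edgeR's quasi-likelihood test. The fold and p cutoffs are those of the study, which does not name its test, so its calls may come from another one. With all libraries, 286 of 13054 tested genes (2.19%) were higher in BLM and 272 (2.08%) were lower. That total of 558 was below the 653 genes that a p under 0.05 gives on average among 13054 unchanged genes, and none passed a Benjamini-Hochberg adjusted p of 0.05, the smallest being 0.9. Without BLM 3, 414 of 14084 genes (2.94%) were higher and 353 (2.51%) lower, 767 against 704 given by the threshold, and again none passed after adjustment, with a smallest adjusted p of 0.059. Calls made in both fits numbered 164 higher and 201 lower. The median log2 fold change over all tested genes was -0.08 with all libraries and 0.05 without BLM 3, and it is the level against which gene lists are read. These fits took the spread from all 4 groups of the series. A fit to Con 1 to 3 and BLM 1 and 2 alone, whose adjusted p-values were taken up after the data were seen, gave 55 of 12690 genes (0.433%) with an adjusted p under 0.05 in edgeR, 28 higher and 27 lower. The same fit with BLM 3 called 380 of 11595 genes (3.28%) by fold and unadjusted p, against 580 given by the threshold, and none passed after adjustment (smallest adjusted p 1). Adjusted p-values under 0.05 from the fit to 5 libraries are printed below as "5-library", and 31 of the 148 genes named here and tested in it had one. Many of the 148 were named for a small p or a call in fits to these libraries, so that share follows in part from the choice. DESeq2 in the model of 4 groups gave 116 genes with an adjusted p under 0.05 with all libraries and 173 without BLM 3. The p-values measure the spread between mice. Below, a pair of values in brackets is the log2 fold change with all libraries and then without BLM 3, each ± SE, or the median of a list in the same order. The SE was derived from the test, as the absolute log2 fold change over the square root of edgeR's F statistic. It is therefore no measure of spread independent of the p-value.

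Of the 97 genes named here that were called with all libraries, 54 kept that call when each of the 6 libraries was left out in turn, and the libraries that ended the others are given in the paragraphs on them. Of the genes above, Ptprc was lower in both fits (-1.64 ± 0.64 and -1.14 ± 0.39), and the call of Xist ended without BLM 3. A further 34 genes are named that were called only without BLM 3, and 20 of them kept that call when each of the 5 remaining libraries was left out as well. The others, with the libraries whose omission ended the call in brackets, were Ccr2 (Con 3), Cebpa (BLM 1), Csf1 (BLM 1), Dcn (Con 1, Con 3, BLM 1 or BLM 2), F13a1 (Con 1, Con 2 or Con 3), Itgam (Con 1, Con 2 or Con 3), Lcn2 (Con 2 or BLM 1), Mdm2 (Con 1, Con 2, BLM 1 or BLM 2), Mt1 (Con 1, Con 2 or BLM 2), Napsa (BLM 2), Nfkbia (Con 1 or BLM 1), Pparg (Con 3 or BLM 1), Siglecf (Con 1, Con 2, Con 3 or BLM 1) and Socs3 (Con 1, Con 2 or Con 3). For gene lists, a relative median is the median of the list minus that of all tested genes. Leaving out 1 other library ended the call with all libraries of Ptprc (log2 fold change -1.48 without Con 3).

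Because no gene passed after adjustment in the edgeR model of 4 groups, the separation of single libraries is described for the genes. Genes named for a small p had to be separated to be named, with all libraries or without BLM 3. For them the separation is a condition of the choice and adds no further evidence. All 3 BLM libraries lay above all 3 Con libraries for 5.81% of tested genes and below them for 10.2%. Without BLM 3 the shares were 18.6% above and 11.8% below. For 1 gene taken alone the smallest exact two-sided permutation p is 0.1 with 3 against 3 libraries and 0.2 with 2 against 3.

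Metallothioneins bind zinc and copper and are switched on by metals, glucocorticoids and inflammation. Mt2 rose from 172, 206 and 190.4 CPM in Con to 1993, 2467 and 624 CPM in BLM. All 3 BLM libraries were above all Con libraries, with BLM 3 the lowest of them. The log2 fold change was 3.16 ± 0.7 (SE) with all libraries and 3.56 ± 0.59 without BLM 3, with a 5-library adjusted p of 0.00791. The neighbouring gene Mt1 had 656, 474 and 972 CPM in Con and 1482, 2032 and 1067 CPM in BLM. Its groups did not overlap either, and it rose without BLM 3 (log2 fold change 1.33 ± 0.5) but was not called with all libraries (1.12 ± 0.53). Both genes lie on chromosome 8 within 7.7 kb of each other (GRCm38, Mt2 from 94172664 to 94173568 and Mt1 from 94179082 to 94180327).

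The neutrophil attractant Cxcl2 was the most abundant chemokine of BLM 1 and 2. It stood at 876, 554 and 627 CPM in Con and 11894, 6005 and 37 CPM in BLM. BLM 1 and 2 were far above all Con libraries and BLM 3 was below them, so that the groups overlapped with all libraries. Cxcl2 was nevertheless called higher in both fits (log2 fold change 3.12 ± 1.28 with all libraries, 3.71 ± 0.84 without BLM 3, 5-library adjusted p 0.0196). Cxcl3, a near neighbour of the same function, had 9.39, 5.07 and 16.2 CPM in Con and 119.9, 71.1 and 0 CPM in BLM. It rose only in the fit without BLM 3 (3.22 ± 1.0, against 2.64 ± 1.66 with all libraries). The genes lie 119.8 kb from end to end on chromosome 5 (GRCm38, Cxcl3 from 90786103 to 90789600 and Cxcl2 from 90903871 to 90905938). Calls with all libraries that ended on leaving out 1 other library were those of Cxcl2 (log2 fold change 2.14 to 3.06 without Con 2, Con 3 or BLM 1).

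The promoters of Mt2, Cxcl2 and Cxcl3 are shown because these genes answer to well studied transcription factors, the metal-responsive factor MTF-1 for metallothioneins and NF-kB for the chemokines. Each line holds the 250 bases before the gene's RefSeq start on GRCm38.p6, in the direction of transcription, at chr8:94172368-94172617 for Mt2, chr5:90903649-90903898 for Cxcl2 and chr5:90785851-90786100 for Cxcl3, all on the plus strand. Capitals mark matches on either strand, to TGCNCNC in Mt2 and to the NF-kB motif (GGG, any 2 bases, TTTCC) in Cxcl2 and Cxcl3. TGCNCNC is looser than the metal response element core TGCRCNC, in which R is A or G.
Mt2: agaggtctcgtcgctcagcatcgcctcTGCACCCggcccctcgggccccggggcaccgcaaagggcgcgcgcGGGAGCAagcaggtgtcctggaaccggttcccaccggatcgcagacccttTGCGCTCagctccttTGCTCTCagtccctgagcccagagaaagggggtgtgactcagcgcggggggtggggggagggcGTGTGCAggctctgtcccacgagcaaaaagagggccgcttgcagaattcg
Cxcl2: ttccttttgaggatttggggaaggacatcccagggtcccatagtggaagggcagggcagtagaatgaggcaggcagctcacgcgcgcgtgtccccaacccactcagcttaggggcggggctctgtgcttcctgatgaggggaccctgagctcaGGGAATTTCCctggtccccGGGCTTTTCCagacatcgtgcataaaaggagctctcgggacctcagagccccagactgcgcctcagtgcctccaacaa
Cxcl3: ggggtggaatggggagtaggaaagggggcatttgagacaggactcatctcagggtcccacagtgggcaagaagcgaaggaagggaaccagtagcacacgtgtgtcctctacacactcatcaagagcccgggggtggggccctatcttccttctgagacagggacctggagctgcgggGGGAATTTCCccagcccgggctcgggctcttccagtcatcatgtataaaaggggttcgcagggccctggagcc
The Mt2 window held 5 matches to TGCNCNC. Of 32851 RefSeq promoter windows of the same length, 0.344% held as many, although 44.413% held at least 1. Some of the 5, such as TGCTCTC, have T where the core has A or G and are not core matches. The window of the neighbouring Mt1 held 1 match. It spans chr8:94178839-94179088, which runs past the GENCODE start of Mt1 at 94179082. Bases after the window were not searched, so the 2 genes are not compared by these numbers. The Cxcl2 window held 2 matches to the NF-kB motif, as did 0.024% of windows, and the Cxcl3 window held 1, as did 1.412%. A match describes these letters and does not show that a factor was bound.

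Resident alveolar macrophage genes formed the list with the most lower calls in both fits. With all libraries 9 of 20 tested members fell and 0 rose, and without BLM 3, 14 fell and 0 rose. In 16 of the 20 all BLM libraries lay below all Con libraries. The median log2 fold change was -2.24 with all libraries and -1.75 without BLM 3. The alveolar macrophage list with 1 other library left out had a relative median of -3.1 (without BLM 2) to -1.76 (without BLM 1), against -2.16 with all libraries, and 6 (without BLM 1) to 12 (without BLM 2) called lower.

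Itgax, the integrin CD11c of alveolar macrophages and dendritic cells, stood at 691, 557 and 485 CPM in Con and 86.8, 178 and 113 CPM in BLM. The groups did not overlap, BLM 3 lay between the other BLM libraries, and the log2 fold change was -2.2 ± 0.53 with all libraries and -2.12 ± 0.52 without BLM 3. Krt79, a keratin that marks mouse alveolar macrophages, fell in the same even way, from 533, 440.2 and 577 CPM to 29.8, 48.1 and 60.1 CPM (-3.49 ± 1.03 and -3.73 ± 1.17, 5-library adjusted p 0.0137). Car4, a carbonic anhydrase found in these macrophages and in capillary endothelium, had 520.1, 411 and 407 CPM in Con and 141, 237 and 134 CPM in BLM (-1.39 ± 0.55 and -1.24 ± 0.54). With 1 other library left out, no call was made for Car4 (log2 fold change -1.27 to -1.26 without Con 1 or BLM 1).

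For most other members BLM 3 was below BLM 1 and 2. The eosinophil-associated ribonucleases Ear1 and Ear2 had 1855, 1740.4 and 1498 CPM and 1956, 1771 and 2356 CPM in Con and 206, 318 and 0.07198 CPM and 326, 535 and 42.8 CPM in BLM. Their log2 fold changes were -3.28 ± 1.4 and -2.75 ± 0.85 with all libraries and -2.7 ± 0.76 and -2.23 ± 0.71 without BLM 3 (5-library adjusted p 0.0267 for Ear1). Siglecf, the surface lectin used to identify alveolar macrophages, had 170.2, 199 and 163 CPM in Con and 21.2, 35.8 and 0 CPM in BLM. It was not called with all libraries (-3.23 ± 1.56) and fell without BLM 3 (-2.64 ± 1.17, 5-library adjusted p 0.0415). Pparg, the nuclear receptor needed for alveolar macrophage identity, followed the same pattern, with 227, 225 and 301 CPM in Con, 25.7, 149 and 0 CPM in BLM and log2 fold changes of -2.11 ± 1.34 with all libraries and -1.52 ± 0.65 without BLM 3. The mannose receptor Mrc1 fell in both fits, from 1171, 1009 and 1611 CPM to 285, 743 and 176 CPM (-1.65 ± 0.61 and -1.3 ± 0.57). Members at high level that passed in neither fit were Chil3, with 5250.0, 5169 and 14069 CPM in Con and 3937, 4173 and 313 CPM in BLM (-1.54 ± 0.82 and -1.01 ± 0.67), and Marco, a scavenger receptor, with 276, 435 and 736 CPM in Con and 467, 747 and 0 CPM in BLM (-0.25 ± 1.38 and 0.33 ± 0.57). The call with all libraries was lost on leaving out 1 other library for Ear1 (log2 fold change -3.41 without BLM 1) and Mrc1 (-1.46 to -1.44 without Con 3 or BLM 1).

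**Figure D2:**
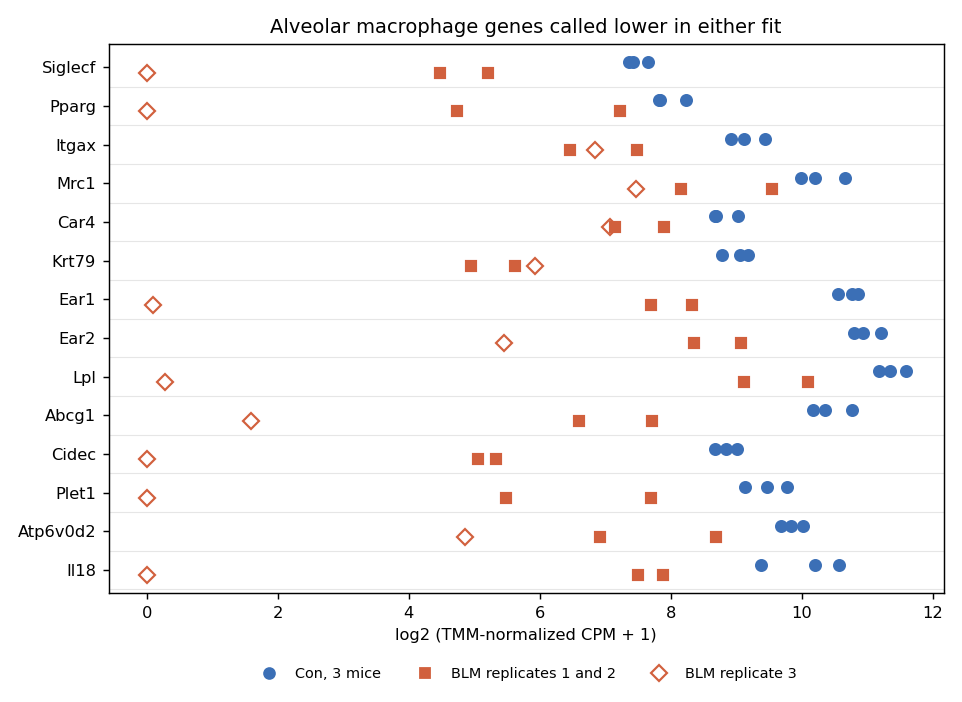
Level of alveolar macrophage genes in each Con and BLM library, as log2 of TMM-scaled CPM plus 1, with replicates as separate points. Itgax, Krt79 and Car4 were lower in all 3 BLM libraries, whereas Siglecf, Ear1 and Pparg were lowest in BLM 3.

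Some of the named lower genes have roles in lipid handling. They were not fixed as a list, and Apoe, described below with the macrophage genes, went the other way. Abcg1, Cidec and Lpl are also members of the alveolar macrophage list above. The list of sterol and fatty acid synthesis had 1 of 40 genes higher and 2 lower with all libraries. Without BLM 3 it had 0 of 40 higher and 2 lower (median 0.28 and 0.2). The cholesterol exporter Abcg1 had 1733, 1151 and 1313 CPM in Con and 95.7, 209 and 2.02 CPM in BLM, with a log2 fold change of -3.77 ± 1.08 with all libraries and -3.2 ± 0.68 without BLM 3 (5-library adjusted p 0.0412). The lipid droplet protein gene Cidec had 409, 459.7 and 517 CPM in Con and 39.2, 32.3 and 0 CPM in BLM (-4.28 ± 1.5 and -3.69 ± 1.0, 5-library adjusted p 0.00919). In both genes every BLM library lay below every Con library. Lpin1, the phosphatidate phosphatase lipin 1, fell from 415, 273 and 514 CPM to 25.6, 53.96 and 43.3 CPM (-3.29 ± 0.84 and -3.33 ± 0.93, 5-library adjusted p 0.0439). Fabp1, a fatty acid binding protein, had 194, 245 and 532 CPM in Con and 6.39, 0.292 and 0 CPM in BLM, and it was called lower in both fits (-7.2 ± 1.8 and -6.59 ± 1.61). Lipoprotein lipase Lpl at 3066, 2609 and 2319 CPM in Con and 552, 1086 and 0.216 CPM in BLM, and the cholesterol ester hydrolase Nceh1 at 901, 944 and 645 CPM in Con and 149, 227 and 0 CPM in BLM, were called only without BLM 3 (log2 fold changes -2.29 ± 1.27 and -2.73 ± 1.33 with all libraries, -1.7 ± 0.42 and -2.14 ± 0.46 without BLM 3).

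Lists of general macrophage and monocyte genes held more higher than lower calls, but their summed levels overlapped between the groups with all libraries. The macrophage list summed to 5567, 4961 and 7583 CPM in Con and 7724, 9416 and 467.5 CPM in BLM. The monocyte list summed to 6496, 6385 and 15550 CPM in Con and 9743, 8570 and 911.8 CPM in BLM. Most of that sum in each Con library was Chil3, whose values are given above and which is also on the alveolar macrophage list. Of 20 tested general macrophage genes, 5 rose and 2 fell with all libraries and 9 rose and 2 fell without BLM 3, with a median log2 fold change of 0.61 and 1.18. Of 14 monocyte genes 3 rose and 1 fell with all libraries, and 5 rose and 1 fell without BLM 3 (median log2 fold change 1.11 with all libraries and 1.57 without BLM 3). In most of these genes the rise was carried by BLM 1 and 2, and BLM 3 was at or near the Con level or at 0.

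The 3 chains of complement C1q, made mainly by macrophages, were low in Con. C1qa had 10.2, 23.5 and 0 CPM in Con and 967, 1060.0 and 13.1 CPM in BLM, C1qb had 0, 12.6 and 10.1 CPM and 408, 626 and 20.2 CPM, and C1qc had 0, 17.9 and 0.0876 CPM and 701, 1122 and 35.4 CPM. Only BLM 1 and 2 were at high level, although BLM 3 also lay above the Con range for C1qb and C1qc. The log2 fold changes were 5.92 ± 1.94, 5.53 ± 2.01 and 6.69 ± 2.42 with all libraries and 6.5 ± 1.64, 6.09 ± 1.82 and 7.24 ± 2.22 without BLM 3. The genes stand next to each other within 18.7 kb of chromosome 4 (GRCm38, from 136880129 to 136898803). C3ar1, the receptor for the complement fragment C3a, rose from 0, 7.66 and 0.0876 CPM to 283, 233 and 0 CPM (6.05 ± 2.7 and 6.63 ± 2.21). Omitting 1 other library ended the call with all libraries of C3ar1 (log2 fold change 5.47 to 5.76 without Con 1, Con 3, BLM 1 or BLM 2).

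Arg1, the arginase of alternatively activated macrophages, had 5.96, 0 and 0 CPM in Con and 3799, 2819 and 63.4 CPM in BLM. The BLM libraries were all above the Con libraries, and the log2 fold change was 10.15 ± 3.61 with all libraries and 10.75 ± 3.33 without BLM 3. The scavenger receptor gene Msr1 had 9.52, 7.44 and 13.8 CPM in Con and 448, 363 and 0 CPM in BLM (4.72 ± 1.77 and 5.3 ± 0.98, 5-library adjusted p 0.00791). Apoe, the apolipoprotein of lipid-handling macrophages, was the largest of these in BLM 3, with 169.7, 262 and 107 CPM in Con and 3382, 2975 and 1142 CPM in BLM, and all 3 BLM libraries stood above Con (3.8 ± 1.27 and 4.15 ± 1.28, 5-library adjusted p 0.0137).

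S100a4 and S100a6 encode small calcium-binding proteins of monocytes and of motile cells. S100a4 had 101, 99.5 and 64.2 CPM in Con and 1947, 1899 and 62.1 CPM in BLM, with BLM 3 below the Con range. S100a6 had 173, 115 and 239 CPM in Con and 2973, 2165 and 218 CPM in BLM, with BLM 3 inside the Con range. Both rose in both fits, by a log2 fold change of 3.88 ± 1.07 and 3.34 ± 0.97 with all libraries and 4.44 ± 0.76 and 3.87 ± 0.79 without BLM 3 (5-library adjusted p 0.00791 and 0.0137). Ccr2, the receptor through which monocytes follow Ccl2, had 9.01, 49.3 and 18.1 CPM in Con and 349, 386 and 0.07198 CPM in BLM, and F13a1, a coagulation factor chain of monocytes, had 15.4, 17.4 and 19.5 CPM and 1149, 391 and 0 CPM. These were called only without BLM 3 (3.27 ± 1.9 and 4.88 ± 2.62 with all libraries, 3.85 ± 1.38 and 5.46 ± 2.1 without, 5-library adjusted p 0.0116 for F13a1), as was the integrin Itgam (2.98 ± 2.09 and 3.56 ± 1.62), which had 15.99, 22.1 and 59.2 CPM in Con and 420.5, 348 and 0 CPM in BLM. The monocyte gene Itgal went down instead, from 505, 371 and 599.8 CPM to 73.2, 103 and 0 CPM (-3.07 ± 1.29 and -2.48 ± 0.46, 5-library adjusted p 0.0415). Leaving out 1 other library ended the call with all libraries of Itgal (log2 fold change -3.26 to -2.9 without Con 3 or BLM 1).

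Within the alternatively activated list, 4 of 23 genes rose and 3 fell with all libraries, and 5 rose and 3 fell without BLM 3 (median 1.5 and 2.09). The genes that fell were Mrc1, the tetraspanin Cd9 and the beta-glucan receptor Clec7a, which are also abundant in alveolar macrophages. Cd9 had 1516, 1718 and 1973 CPM in Con and 328, 659 and 126 CPM in BLM, and Clec7a had 1678, 1087 and 1170.1 CPM and 256, 427 and 41.03 CPM. Every BLM library was below every Con library in both, with log2 fold changes of -2.23 ± 0.56 and -2.44 ± 0.65 with all libraries and -1.81 ± 0.45 and -1.94 ± 0.41 without BLM 3. The alternatively activated macrophage list with 1 other library left out had 2 (without Con 1 or Con 2) to 4 (without Con 3) called higher.

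**Figure D3:**
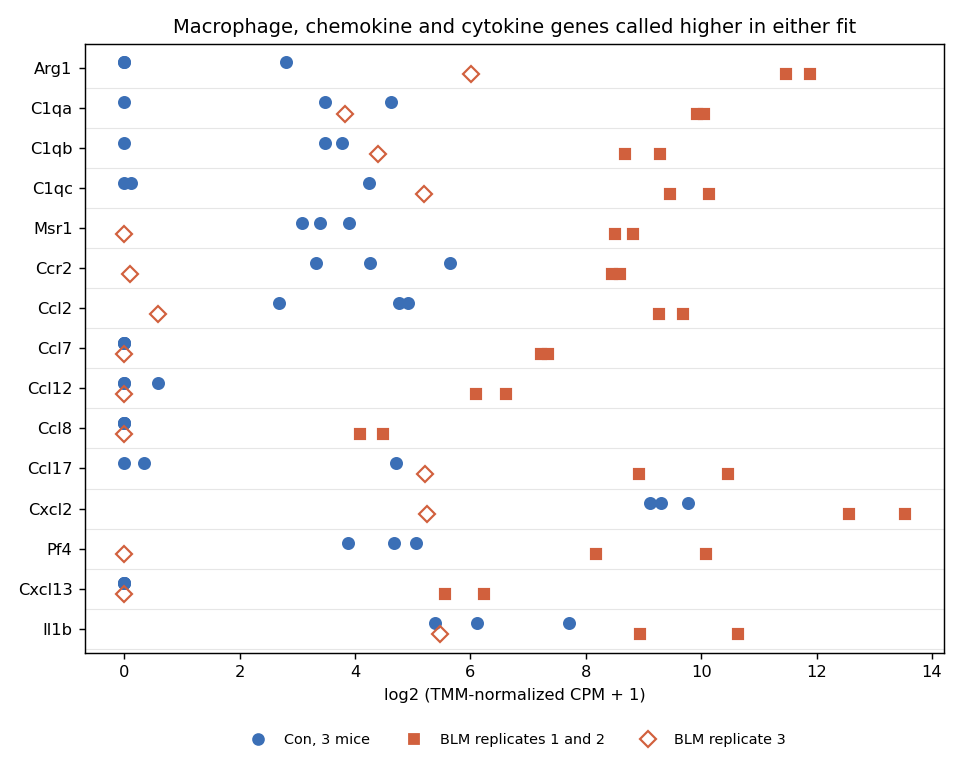
Level of genes of recruited macrophages and monocytes and of chemokines in each Con and BLM library, as log2 of TMM-scaled CPM plus 1, with replicates as separate points. BLM 1 and 2 stand above Con for the genes drawn, while BLM 3 is near or below Con for most of them.

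Chemokines, the proteins that draw leukocytes out of the blood, were mostly higher in BLM 1 and 2. Of 15 tested CC chemokines 5 rose and none fell with all libraries and 7 rose and none fell without BLM 3, and the median log2 fold change was 2.27 and 2.85. Of the other chemokines tested, 3 of 13 rose and 1 fell with all libraries and 4 of 14 rose and 1 fell without BLM 3 (median 1.89 and 2.15). The member that fell was Cxcl15, a chemokine made by lung epithelium. The CC chemokine list with 1 other library left out had 2 (without Con 2) to 3 (without Con 1, Con 3, BLM 1 or BLM 2) called higher. The CXC, CX3C and XC chemokine list with 1 other library left out had a relative median of 0.78 (without BLM 1) to 2.86 (without Con 3), against 1.97 with all libraries, and 1 (without Con 2 or BLM 1) to 3 (without BLM 2) called higher.

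The monocyte attractants of chromosome 11, which lie within 81.2 kb (GRCm38, from 82035571 to 82116799), rose together. Ccl2 had 26.01, 29.2 and 5.43 CPM in Con and 817, 618 and 0.504 CPM in BLM, with BLM 3 below the Con range. Its log2 fold change was 4.56 ± 2.11 with all libraries and 5.15 ± 1.69 without BLM 3 (5-library adjusted p 0.0352). Ccl7 was at 0 in all Con libraries and had 148, 161 and 0 CPM in BLM, which against the floor of 3 counts in each Con library was at least 319-fold higher with all libraries and at least 478-fold higher without BLM 3 (5-library adjusted p 0.0102). Ccl8, also at 0 in Con, had 15.97, 21.5 and 0 CPM in BLM and was at least 38.7-fold higher with all libraries and at least 58.1-fold higher without BLM 3. Ccl12 had 0.508, 0 and 0 CPM in Con and 67.4, 97.1 and 0 CPM in BLM and was called higher in both fits (p 0.0358 and 0.01 in edgeR). Its 4 counts in Con 1 were the only ones in Con, too few for a fold change. None of the 4 was above 1 CPM in BLM 3. Calls with all libraries that ended on leaving out 1 other library were those of Ccl2 (log2 fold change 3.94 to 4.93 without Con 1, Con 2, Con 3, BLM 1 or BLM 2), Ccl8 (without Con 1, Con 2 or Con 3) and Ccl12 (without Con 2, Con 3, BLM 1 or BLM 2).

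Ccl17, a T cell attractant of dendritic cells and alternatively activated macrophages, rose from 0, 25.2 and 0.263 CPM to 484, 1409 and 36.2 CPM, and here BLM 3 lay above the Con range (6.24 ± 2.03 and 6.8 ± 1.8). Pf4, platelet factor 4, rose from 32.1, 24.6 and 13.7 CPM to 1089, 286 and 0 CPM (4.29 ± 1.76 and 4.87 ± 0.96, 5-library adjusted p 0.0352). Cxcl13, the B cell attractant, was at 0 in Con and had 74.6, 46.1 and 0 CPM in BLM, at least 125-fold higher with all libraries and at least 187-fold higher without BLM 3 (5-library adjusted p 0.0415). Ccl6 was among the most abundant chemokines of both groups and did not pass in either fit, with 3901, 2902 and 10104 CPM in Con and 3543, 5931 and 60.3 CPM in BLM (-0.83 ± 1.0 and -0.25 ± 0.65). With 1 other library left out, no call was made for Pf4 (log2 fold change 2.61 to 4.58 without Con 1, Con 2, Con 3 or BLM 1).

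Cytokines were called in both directions. Of 25 tested cytokines 3 rose and 1 fell with all libraries, and 6 of 27 rose and 3 fell without BLM 3 (median 0.9 and 1.46). Il1b, the main product of the inflammasome, had 40.6, 67.8 and 207 CPM in Con and 1583, 489 and 43.2 CPM in BLM, rising with 2.74 ± 0.98 and 3.3 ± 0.7. Il18, the other inflammasome cytokine, had 1169.6, 1509.6 and 665 CPM in Con and 179, 234 and 0 CPM in BLM and fell only without BLM 3 (-3.02 ± 1.46 and -2.43 ± 0.78). Mif, macrophage migration inhibitory factor, had 53.04, 43.8 and 83.3 CPM in Con and 199.6, 152 and 889 CPM in BLM, all BLM libraries above all Con libraries and BLM 3 the highest (2.78 ± 0.79 and 1.55 ± 0.59). Csf1, the growth factor of macrophages, rose only without BLM 3 (2.26 ± 1.51 and 2.85 ± 0.92), from 34.9, 16.2 and 31.8 CPM to 289, 109 and 0.07198 CPM. The decoy receptor Il1r2 rose in both fits, from 3.17, 7.87 and 43.8 CPM to 368, 169 and 15.9 CPM (3.33 ± 1.22 and 3.87 ± 1.01), with BLM 3 inside the Con range. The call with all libraries was lost on leaving out 1 other library for Il1b (log2 fold change 1.34 without BLM 1) and Il1r2 (2.33 to 2.97 without Con 1, Con 2 or BLM 1). The cytokine list with 1 other library left out had a relative median of 0.63 (without Con 2) to 1.88 (without Con 3), against 0.98 with all libraries, and 1 (without BLM 1) to 3 (without Con 2) called higher.

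Saa3 and Serpina3n, genes of secreted acute phase proteins, rose in both fits. Saa3, serum amyloid A3, had 0, 2.91 and 8.94 CPM in Con and 729, 257 and 10.5 CPM in BLM, with a log2 fold change of 6.38 ± 2.2 with all libraries and 6.94 ± 1.9 without BLM 3. Serpina3n, an inhibitor of serine proteases, had 2.16, 3.67 and 4.82 CPM in Con and 216, 183 and 12.1 CPM in BLM (5.26 ± 1.97 and 5.8 ± 1.77, 5-library adjusted p 0.00791). In both genes all 3 BLM libraries were above all Con libraries, and BLM 3 was the lowest of them. Lrg1, a leucine-rich glycoprotein, and Lcn2, lipocalin 2, were called only without BLM 3 (3.48 ± 1.66 and 3.01 ± 1.64 with all libraries, 4.07 ± 0.87 and 3.58 ± 1.35 without), where Lrg1 stood at 2.16, 15.4 and 65.8 CPM in Con and 539.5, 396 and 0 CPM in BLM and Lcn2 at 0, 13.2 and 43.4 CPM and 357, 95.8 and 3.17 CPM. Omitting 1 other library ended the call with all libraries of Serpina3n (log2 fold change 5.0 without Con 1).

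Extracellular matrix genes are expressed in bulk by fibroblasts, and their proteins make up scar tissue. The collagen and matricellular lists held higher and no lower calls, and the matrix crosslinking list held calls in both directions. The basement membrane list held only 1 call in each fit, lower with all libraries and higher without BLM 3. The summed level of 19 tested collagens and the members below the filter was 113, 315 and 525 CPM in Con and 2136, 1485 and 1347 CPM in BLM, with no overlap. Of the tested collagens 3 rose with all libraries and 3 of 22 without BLM 3, and none fell. Their median log2 fold change was 2.46 with all libraries and 2.3 without BLM 3, or 2.07 with genes at 0 in a group set to their bound. The basement membrane list had 0 of 21 genes higher and 1 lower with all libraries, and 1 of 24 higher and 0 lower without BLM 3 (median 1.12 and 1.57). That of matrix crosslinking and processing had 1 of 19 genes higher and 1 lower with all libraries, and 2 of 22 higher and 3 lower without BLM 3 (median 1.55 and 1.01). The collagen list with 1 other library left out had a relative median of 2.08 (without Con 1) to 2.71 (without BLM 2), against 2.54 with all libraries, and 1 (without Con 1) to 4 (without Con 2) called higher. The basement membrane list with 1 other library left out had none called lower. The matrix crosslinking and processing list with 1 other library left out had a relative median of 1.82 (without Con 2) to 2.72 (without Con 3), against 1.63 with all libraries, and 1 (without Con 1, Con 2, Con 3 or BLM 1) to 2 (without BLM 2) called higher.

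Col1a2, a chain of type I collagen, had 24.4, 106 and 214 CPM in Con and 888, 633 and 369 CPM in BLM (2.46 ± 0.89 with all libraries and 2.73 ± 0.87 without BLM 3). Col3a1, the chain of type III collagen, had 25.5, 81.5 and 30.7 CPM in Con and 456, 357 and 104 CPM in BLM (2.73 ± 1.0 and 3.15 ± 0.92). Both were above the Con range in all 3 BLM libraries. The partner chain Col1a1 had 21.3, 10.5 and 141 CPM in Con and 379, 221 and 438 CPM in BLM, without overlap, and passed in neither fit (2.58 ± 1.31 and 2.38 ± 1.32). Col11a1 was at 0 in Con and had 4.79, 3.36 and 86.7 CPM in BLM, mostly in BLM 3, and was called only with all libraries, where it was at least 98.1-fold higher, against at least 12.7-fold without BLM 3. Leaving out 1 other library ended the call with all libraries of Col1a2 (log2 fold change 1.98 without Con 1) and Col3a1 (2.33 to 2.51 without Con 1, Con 3 or BLM 1).

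The matricellular list, proteins that sit in the matrix and signal to cells, had 5 of 35 genes higher with all libraries and 8 of 40 without BLM 3, and none lower (median 1.06 and 1.02). Thbs1, thrombospondin 1, which can activate latent TGF-beta, was the higher gene with the smallest p with all libraries (0.000269 in edgeR). It stood at 15.99, 37.6 and 36.8 CPM in Con and 446, 203 and 275 CPM in BLM, the groups did not overlap, and BLM 3 lay between the other BLM libraries. The log2 fold change was 3.35 ± 0.7 with all libraries and 3.43 ± 0.63 without BLM 3 (5-library adjusted p 0.0464). The matricellular list with 1 other library left out had a relative median of 0.71 (without BLM 1) to 1.24 (without Con 2), against 1.14 with all libraries, and 3 (without BLM 1) to 4 (without Con 1, Con 2, Con 3 or BLM 2) called higher.

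Fn1, fibronectin, rose from 362, 259 and 395 CPM to 1347, 1052 and 432 CPM (1.48 ± 0.59 and 1.82 ± 0.51), again without overlap. Tnc, tenascin C, a protein of injured and developing tissue, was at 0 in Con and had 9.15, 24.4 and 149 CPM in BLM, at least 188-fold higher with all libraries and at least 52.1-fold higher without BLM 3. Sparc, a collagen-binding glycoprotein, had 19.2, 94.5 and 141 CPM in Con and 368, 269 and 754 CPM in BLM (2.45 ± 0.86 and 1.91 ± 0.81). The elastin gene Eln had 16.8, 38.6 and 8.24 CPM in Con and 379.9, 265 and 11.4 CPM in BLM, and Ecm1 had 37.9, 11.1 and 11.2 CPM and 355, 291 and 76.1 CPM. Both rose in both fits (3.37 ± 1.22 and 3.58 ± 1.01 with all libraries, 3.93 ± 0.94 and 4.01 ± 0.9 without BLM 3), but only Ecm1 was above Con in all 3 BLM libraries. Mgp, the matrix Gla protein, which restrains calcification, stood at 104, 255 and 202 CPM in Con and 1582, 1363 and 333 CPM in BLM and had a 5-library adjusted p of 0.0352 (log2 fold change 2.55 ± 0.84 with all libraries and 2.98 ± 0.76 without BLM 3). Calls with all libraries that ended on leaving out 1 other library were those of Fn1 (log2 fold change 1.13 to 1.53 without Con 1, Con 2, BLM 1 or BLM 2) and Eln (2.7 to 2.98 without Con 3 or BLM 1).

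**Figure D4:**
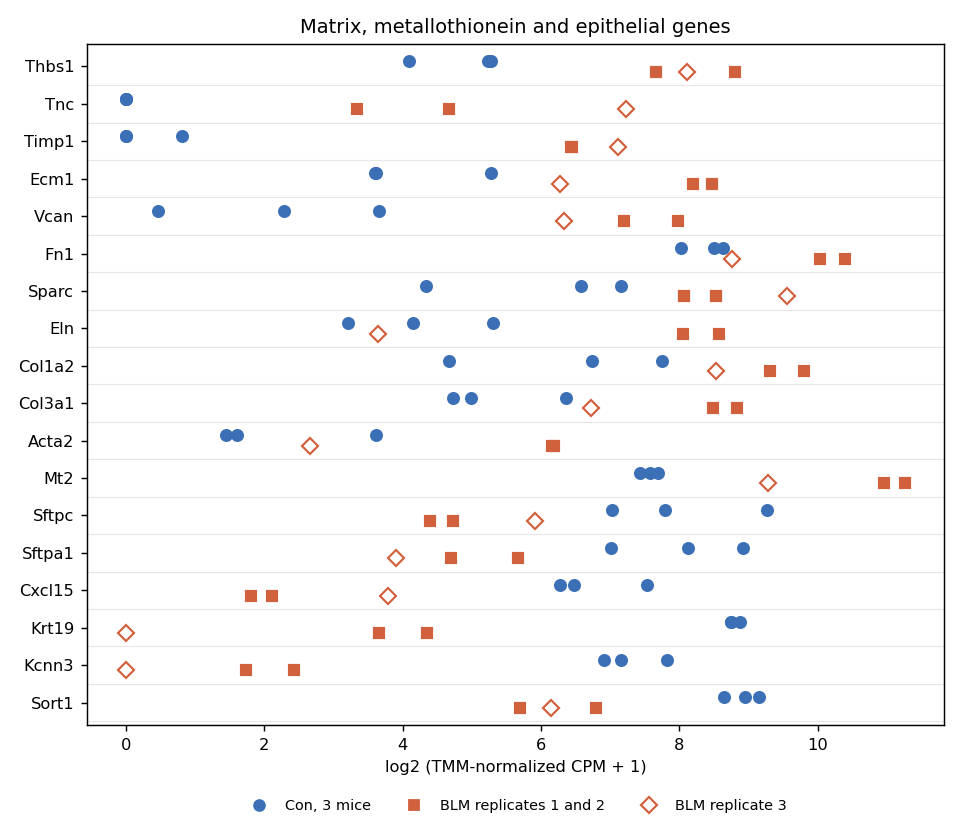
Level of extracellular matrix, metallothionein and epithelial genes in each Con and BLM library, as log2 of TMM-scaled CPM plus 1, with replicates as separate points. Thbs1, Fn1, Col1a2, Col3a1 and Timp1 were above Con in all 3 BLM libraries.

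Genes that regulate or modify the matrix were called in both directions. Timp1, an inhibitor of metalloproteinases, had 0.761, 0 and 0 CPM in Con and 85.5, 85.98 and 137 CPM in BLM, an even level in all 3 BLM libraries (8.64 ± 2.62 and 8.37 ± 2.72). Its only Con counts were the few of Con 1, so the size of these fold changes is uncertain. The macrophage elastase gene Mmp12 was called only with all libraries (3.79 ± 1.68 and 3.3 ± 1.6), at 4.695, 0 and 14.1 CPM in Con and 49.1, 75.6 and 136 CPM in BLM. Versican, Vcan, a proteoglycan of monocytes and fibroblasts, rose from 0.381, 3.88 and 11.7 CPM to 253, 145 and 79.97 CPM (4.9 ± 1.76 and 5.22 ± 1.69). Colgalt1 and Plod3, enzymes that modify collagen chains inside the cell, fell. Colgalt1, which adds galactose to collagen, had 497, 609 and 346 CPM in Con and 127, 165 and 57.4 CPM in BLM (-2.05 ± 0.49 and -1.73 ± 0.37), and Plod3, a lysyl hydroxylase, had 212, 187 and 192 CPM and 69.4, 74.7 and 86.4 CPM (-1.36 ± 0.51 and -1.45 ± 0.44). In both the groups did not overlap. With 1 other library left out, no call was made for Mmp12 (log2 fold change 3.2 to 3.61 without Con 1 or Con 2) and Plod3 (-1.34 to -1.29 without Con 1, BLM 1 or BLM 2).

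Fibroblast and smooth muscle markers also held higher and no lower calls. Their summed level was 285, 603 and 712 CPM in Con and 2138, 1624 and 960.2 CPM in BLM, 3 of 19 rose with all libraries and 4 of 21 without BLM 3, and none fell (median 1.33 and 1.87). Besides the collagens these were Acta2, smooth muscle actin, with 2.03, 1.73 and 11.3 CPM in Con and 71.9, 70.6 and 5.33 CPM in BLM (3.29 ± 1.48 and 3.82 ± 1.27), and, without BLM 3, decorin, Dcn, with 9.77, 49.9 and 30.5 CPM and 106, 121 and 0 CPM (1.33 ± 1.55 and 1.92 ± 0.88). The part of fibroblast RNA in the matrix changes was not tested. The call with all libraries was lost on leaving out 1 other library for Acta2 (log2 fold change 2.88 to 2.94 without Con 1, Con 2, BLM 1 or BLM 2). The fibroblast and smooth muscle list with 1 other library left out had a relative median of 0.4 (without BLM 1) to 1.92 (without Con 2), against 1.41 with all libraries, and 0 (without Con 1) to 3 (without Con 2 or Con 3) called higher.

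The TGF-beta pathway, the main driver of matrix production in fibrosis, had 1 of 32 tested genes higher with all libraries and 2 of 33 without BLM 3 and none lower, with a median log2 fold change of -0.09 with all libraries and 0.1 without BLM 3. Tgfb1, its best known ligand, had 1.65, 0.755 and 12.7 CPM in Con and 3.05, 2.49 and 0 CPM in BLM and passed in neither fit (-1.45 ± 2.49 and -0.86 ± 2.43). The member that rose in both fits was Fst, follistatin, which binds activins, at 0 in Con and 15.5, 45.6 and 23.8 CPM in BLM, at least 87.9-fold higher with all libraries and at least 94.8-fold higher without BLM 3. Tgif1, a repressor of Smad targets, rose only without BLM 3 (1.65 ± 0.89 and 2.16 ± 0.66), from 46.7, 24.8 and 10.4 CPM to 143, 102 and 12.8 CPM.

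Genes of the ATII cell itself held more lower than higher calls. Of 23 tested surfactant and lamellar body genes 6 fell and 0 rose with all libraries, and of 25, 5 fell and 1 rose without BLM 3. The median log2 fold change was -1.65 and -1.53, and 9 members were lower in every BLM than in every Con library. The surfactant and lamellar body list with 1 other library left out had a relative median of -2.67 (without BLM 2) to -1.6 (without Con 2), against -1.56 with all libraries, and 1 (without BLM 1) to 5 (without Con 3) called lower.

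Sftpc, surfactant protein C, stood at 220.2, 617 and 129 CPM in Con and 25.6, 20.03 and 59.2 CPM in BLM, without overlap. It fell in both fits (-3.2 ± 1.27 with all libraries and -3.82 ± 1.43 without BLM 3). Sftpa1, surfactant protein A1, fell from 279, 482 and 129 CPM to 25.1, 49.9 and 14.04 CPM (-3.32 ± 0.99 and -2.98 ± 1.01), also without overlap. Cxcl15, the lung epithelial chemokine, fell from 88.2, 184 and 76.1 CPM to 3.34, 2.49 and 12.8 CPM (-4.22 ± 1.78 and -5.31 ± 1.99, 5-library adjusted p 0.0246). Sftpb, surfactant protein B, with 192, 439 and 131 CPM in Con and 78.3, 97.4 and 2.88 CPM in BLM, was below Con in all BLM libraries without passing in either fit (-2.1 ± 1.45 and -1.53 ± 1.3). Omitting 1 other library ended the call with all libraries of Sftpc (log2 fold change -3.03 to -2.32 without Con 2, BLM 1 or BLM 2) and Cxcl15 (-3.92 to -3.72 without Con 2, BLM 1 or BLM 2).

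Other ATII genes did not follow. Napsa, the aspartic protease that processes surfactant protein precursors, had 98.5, 123 and 37.6 CPM in Con and 217, 319 and 41.7 CPM in BLM and rose only without BLM 3 (1.16 ± 0.75 and 1.64 ± 0.56). Abca3, the lipid pump of lamellar bodies, had 9.898, 20.8 and 27.2 CPM in Con and 20.04, 21.9 and 0 CPM in BLM and passed in neither fit (-0.46 ± 2.02 and 0.12 ± 1.68). Cebpa, a transcription factor of both ATII cells and macrophages, fell only without BLM 3 (-2.15 ± 1.18 and -1.56 ± 0.54), with 336, 314 and 236 CPM in Con and 68.5, 131 and 0.144 CPM in BLM. Hc, the complement component C5, was at 6.98, 24.05 and 11.7 CPM in Con and at 0 in all BLM libraries, which against the floor in each BLM library was at least 39.2-fold lower with all libraries and at least 32.6-fold lower without BLM 3. Leaving out 1 other library ended the call with all libraries of Hc (without BLM 1 or BLM 2).

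The Krt8-high transitional list, genes of ATII cells on the way to ATI cells, had 4 genes higher and 1 lower of 25 with all libraries and 3 higher and 1 lower of 26 without BLM 3, with a median log2 fold change of 1.18 and 1.46. Krt8 itself had 3.17, 0 and 0 CPM in Con and 10.2, 15.1 and 77.3 CPM in BLM, without overlap, and passed in neither fit (5.0 ± 3.03 and 3.56 ± 3.34). Cldn4, a tight junction protein, was at 0 in Con and had 8.28, 19.3 and 14.1 CPM in BLM, at least 43.1-fold higher with all libraries and at least 42.8-fold higher without BLM 3. Cdkn1a, the p53-induced cell cycle inhibitor p21, rose from 444, 466 and 213 CPM to 1315, 915 and 329.6 CPM (1.19 ± 0.54 and 1.57 ± 0.42), with BLM 3 inside the Con range. Calls with all libraries that ended on leaving out 1 other library were those of Cldn4 (without Con 1, Con 2, Con 3 or BLM 2) and Cdkn1a (log2 fold change 0.73 to 1.38 without Con 1, Con 2, Con 3, BLM 1 or BLM 2). The Krt8-high transitional list with 1 other library left out had 1 (without Con 3) to 3 (without Con 1, BLM 1 or BLM 2) called higher.

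The member that fell was Krt19, a keratin of simple epithelia and of mesothelium. It had 471, 431 and 427 CPM in Con and 11.6, 19.4 and 0 CPM in BLM, without overlap (-5.42 ± 1.39 and -4.83 ± 0.82, 5-library adjusted p 0.00791). Among other epithelial markers, Scgb1a1, the club cell secretory protein, rose from 14.7, 63.8 and 99.2 CPM to 241, 229 and 174 CPM (1.86 ± 0.8 and 1.99 ± 0.76), all 3 BLM libraries lying above Con. Jup, the junction protein plakoglobin, fell from 192, 296 and 144 CPM to 51.1, 96.2 and 25.8 CPM (-1.87 ± 0.75 and -1.52 ± 0.7). The ATI markers Ager, with 40.4, 77.97 and 24.9 CPM in Con and 109, 101 and 62.98 CPM in BLM, and Pdpn, with 24.7, 29.1 and 53.7 CPM and 67.5, 150.5 and 232 CPM, passed in neither fit (0.93 ± 1.01 and 2.06 ± 1.74 with all libraries, 1.14 ± 0.98 and 1.6 ± 1.75 without), although all BLM libraries lay above Con for Pdpn. With 1 other library left out, no call was made for Scgb1a1 (log2 fold change 1.39 to 1.91 without Con 1, Con 2, BLM 1 or BLM 2) and Jup (-1.79 to -1.54 without Con 2 or BLM 1).

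Bleomycin cuts DNA, so the p53 and DNA repair lists were examined. Of 38 p53 targets 2 rose and 2 fell with all libraries, and the same numbers rose and fell without BLM 3, with a median log2 fold change of -0.05 and 0.52. Cdkn1a rose in both fits, while Mdm2, the ubiquitin ligase that restrains p53, rose only without BLM 3 (0.9 ± 0.48 and 0.96 ± 0.39), from 109, 76.1 and 139 CPM to 239.6, 179 and 183 CPM without overlap. Gdf15, a secreted stress factor, went down, from 286, 362 and 406 CPM to 70.8, 169 and 19.6 CPM (-2.02 ± 0.66 and -1.55 ± 0.48), and so did Perp, a desmosome-associated p53 target, from 95.6, 47.02 and 79.8 CPM to 11.3, 15.1 and 28.3 CPM (-2.02 ± 0.9 and -2.49 ± 0.89). Of 61 DNA repair genes 1 fell and 0 rose with all libraries and 1 fell and 1 rose without BLM 3 (median -0.12 and -0.31). The member that fell was Ogg1, the glycosylase that removes oxidised guanine, from 551, 381 and 438 CPM to 110.5, 175 and 8.13 CPM (-2.23 ± 0.79 and -1.68 ± 0.46). The call with all libraries was lost on leaving out 1 other library for Perp (log2 fold change -1.97 to -1.78 without Con 1, Con 3, BLM 1 or BLM 2). The p53 target list with 1 other library left out had a relative median of -0.08 (without BLM 2) to 0.56 (without Con 3), against 0.03 with all libraries, and 0 (without Con 1, Con 3 or BLM 2) to 1 (without Con 2 or BLM 1) called higher.

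NF-kB and AP-1 are transcription factors switched on within minutes to hours of injury. The NF-kB list had 1 gene higher with all libraries and 3 without BLM 3 of 24, and the AP-1 and immediate early list 2 and 4 of 28, and no member of either list fell. The median log2 fold changes were 0.62 and -0.12 with all libraries and 0.96 and 0.26 without BLM 3. Nfkbia, the inhibitor that NF-kB itself induces, had 667, 1051 and 1523 CPM in Con and 5492, 2577 and 393 CPM in BLM and rose without BLM 3 (1.9 ± 0.68, against 1.39 ± 0.83 with all libraries). Ier3, an immediate early survival gene, rose in both fits, from 135, 141 and 131 CPM to 1804, 748 and 159 CPM without overlap (2.73 ± 1.05 and 3.23 ± 0.94, 5-library adjusted p 0.0267). Junb, a subunit of AP-1, rose only without BLM 3 (1.02 ± 0.82 and 1.58 ± 0.46), with 740.2, 744 and 579 CPM in Con and 2464, 1664 and 67.7 CPM in BLM. Socs3, the feedback inhibitor of STAT3 signalling, likewise had 42.9, 117 and 92.2 CPM in Con and 837, 716 and 174 CPM in BLM and was called only without BLM 3 (2.77 ± 1.43 and 3.21 ± 1.36, 5-library adjusted p 0.0352). Omitting 1 other library ended the call with all libraries of Ier3 (log2 fold change 1.74 to 2.71 without Con 3 or BLM 1). The NF-kB list with 1 other library left out had 1 (without Con 1, BLM 1 or BLM 2) to 2 (without Con 2 or Con 3) called higher. The AP-1 and immediate early list with 1 other library left out had 0 (without Con 3 or BLM 1) to 1 (without Con 1, Con 2 or BLM 2) called higher.

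Of 43 interferon-stimulated genes 2 rose with all libraries and 3 without BLM 3, and none fell (median 0.6 and 1.06). Ifitm3, a restriction factor of viral entry, rose from 41.7, 93.6 and 294 CPM to 607, 306 and 557 CPM, all BLM libraries lying above Con (1.78 ± 0.68 and 1.67 ± 0.65). Among 12 MHC class II genes 2 rose with all libraries and 3 without BLM 3, and none fell (median 0.3 and 0.77). H2-Aa, an antigen-presenting alpha chain, had 991, 1408 and 367 CPM in Con and 2544, 6345 and 443 CPM in BLM (1.75 ± 0.77 and 2.27 ± 0.58), and H2-Eb1 had 587, 1003 and 156 CPM and 1594, 4494 and 206 CPM (1.85 ± 0.86 and 2.39 ± 0.64). BLM 3 lay inside the Con range in both. None of 23 MHC class I presentation genes was called in either direction in either fit (median -0.41 and -0.06). Leaving out 1 other library ended the call with all libraries of Ifitm3 (log2 fold change 1.34 to 1.59 without Con 1, Con 2 or BLM 1), H2-Aa (0.69 to 1.81 without Con 1, Con 3 or BLM 2) and H2-Eb1 (0.63 to 1.85 without Con 1, Con 3 or BLM 2). The interferon-stimulated list with 1 other library left out had 0 (without Con 1) to 1 (without Con 2, Con 3, BLM 1 or BLM 2) called higher. The MHC class II list with 1 other library left out had a relative median of -0.54 (without BLM 2) to 0.93 (without BLM 1), against 0.38 with all libraries, and 0 (without Con 1, Con 3 or BLM 2) to 2 (without Con 2 or BLM 1) called higher.

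Genes of cytosolic ribosomal proteins were higher in BLM in small steps. Of 79 genes 15 rose with all libraries and 18 without BLM 3, none fell, and 75 had a log2 fold change above 0 with all libraries. In 43 all 3 BLM libraries were above all Con libraries. The median log2 fold change was 0.7 with all libraries and 0.62 without BLM 3. Rps14 is an example, with 609.7, 693 and 594 CPM in Con and 1274, 1312 and 1304 CPM in BLM (1.04 ± 0.39 and 1.03 ± 0.33). Rps27a, which encodes ubiquitin fused to a ribosomal protein, rose from 188, 162 and 357 CPM to 532, 552 and 960.3 CPM (1.53 ± 0.47 and 1.2 ± 0.38). Ribosomal protein genes have many processed pseudogenes of near-identical sequence, and how reads shared with them were counted was not given in the sources used here. Among the 74 genes of oxidative phosphorylation 3 rose and 1 fell with all libraries and 8 rose and 1 fell without BLM 3 (median 0.15 and 0.33). Pkm, the glycolytic pyruvate kinase, rose from 180.2, 187 and 359 CPM to 621, 779 and 693 CPM without overlap (1.53 ± 0.6 and 1.53 ± 0.58). Calls with all libraries that ended on leaving out 1 other library were those of Rps14 (log2 fold change 0.99 to 1.01 without Con 1 or Con 3) and Pkm (1.35 to 1.43 without Con 1, Con 2 or BLM 2). The ribosomal protein list with 1 other library left out had 5 (without Con 1 or Con 2) to 14 (without BLM 1) called higher. The oxidative phosphorylation list with 1 other library left out had 1 (without Con 1 or Con 2) to 4 (without BLM 1) called higher.

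Lists of the endoplasmic reticulum and of the lysosome held more lower than higher calls. In the unfolded protein response list 2 of 30 genes fell with all libraries and 4 without BLM 3, and none rose (median -0.68 and -0.39). Hspa5, the chaperone BiP of the endoplasmic reticulum, fell from 1508, 2125 and 3692 CPM to 1047, 985 and 671 CPM without overlap (-1.44 ± 0.43 and -1.27 ± 0.41). Xbp1, the transcription factor spliced on such stress, had 555, 399 and 549 CPM in Con and 242, 254 and 92.99 CPM in BLM and was called only with all libraries (-1.35 ± 0.56, against -1.02 ± 0.49). Of the lysosomal genes, 6 of 35 fell and 2 rose with all libraries and 6 of 36 fell and 3 rose without BLM 3 (median -0.78 and -0.34). Tpp1, a tripeptidyl peptidase, fell from 373, 387 and 694 CPM to 174, 145 and 2.02 CPM (-2.18 ± 0.99 and -1.6 ± 0.54), while the protease cathepsin L, Ctsl, rose from 169, 158 and 161 CPM to 885, 1117 and 107 CPM (2.11 ± 0.83 and 2.62 ± 0.66, 5-library adjusted p 0.0137) with BLM 3 below the Con range. Cd63, a tetraspanin of late endosomes, rose from 118, 124 and 233 CPM to 771, 1043 and 237 CPM without overlap (2.11 ± 0.75 and 2.52 ± 0.67). With 1 other library left out, no call was made for Xbp1 (log2 fold change -1.28 without Con 1 or Con 3), Tpp1 (-2.47 to -1.83 without Con 3 or BLM 2), Ctsl (1.61 to 2.1 without Con 2, Con 3, BLM 1 or BLM 2) and Cd63 (1.67 without BLM 2). The unfolded protein response list with 1 other library left out had 1 (without Con 1 or Con 3) to 3 (without Con 2 or BLM 2) called lower. The lysosome list with 1 other library left out had 1 (without Con 3) to 7 (without BLM 2) called lower.

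**Figure D5:**
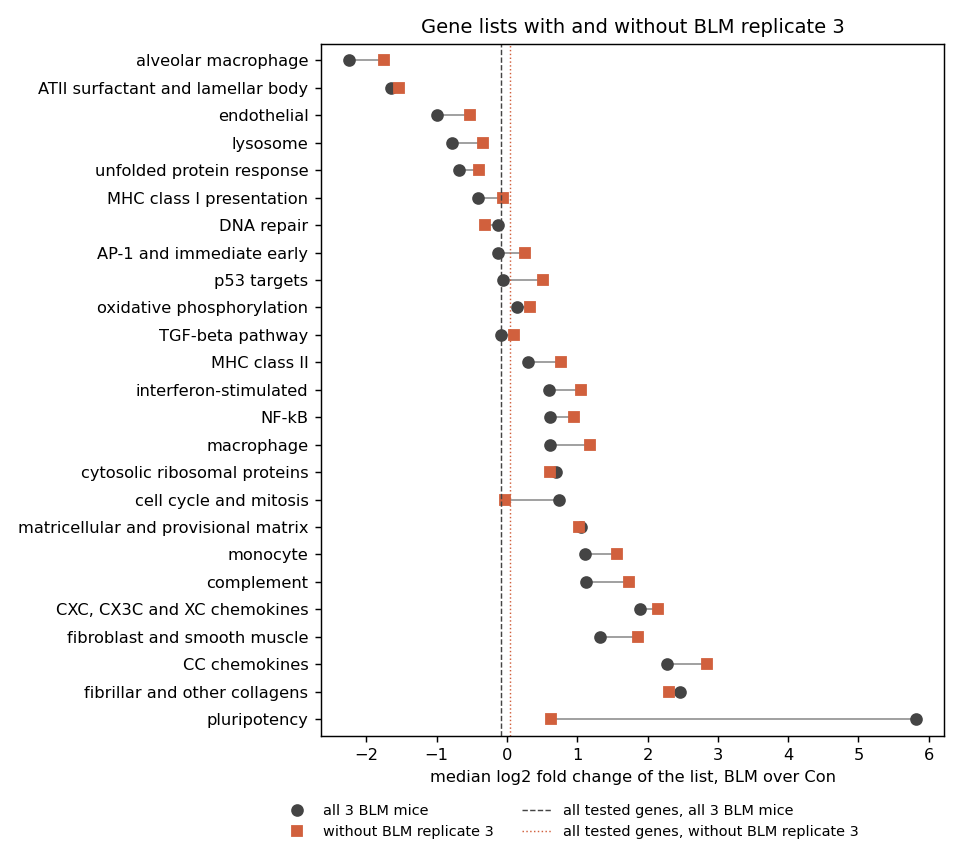
Median log2 fold change (BLM over Con, edgeR) of each gene list with all libraries and without BLM 3, with lines at the medians of all tested genes, -0.08 and 0.05. The pluripotency list moved from 5.82 to 0.63 when BLM 3 was left out, while the alveolar macrophage list stood at -2.24 and -1.75.

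Several strongly separated genes belonged to none of these groups. Sort1, the sorting receptor sortilin, was the gene with the smallest p of all with all libraries (9.51e-05 in edgeR). It had 494, 399.9 and 568 CPM in Con and 51.1, 110.2 and 70.03 CPM in BLM, with no overlap and BLM 3 between the other BLM libraries (-2.66 ± 0.5 and -2.59 ± 0.47, with an adjusted p of 0.0587 in the fit to 5 libraries). Kcnn3, a calcium-activated potassium channel, had the smallest p without BLM 3 (7.98e-06 in edgeR), falling from 225, 141 and 119.5 CPM to 2.32, 4.39 and 0 CPM (-6.19 ± 1.33 and -5.59 ± 0.83, 5-library adjusted p 0.0137). Cd2, an adhesion receptor best known from T cells, fell from 1058, 957 and 738 CPM to 21.5, 49.9 and 0 CPM (-5.27 ± 1.39 and -4.68 ± 0.7, 5-library adjusted p 0.0155). Cd2, like Ptprc, Mt1, Apoe, Saa3, Mgp and Socs3 above, was singled out after its values were seen. Hebp1, a heme-binding protein, fell to an even level, from 180.2, 137 and 193 CPM to 28.5, 31.4 and 37.7 CPM (-2.39 ± 0.52 and -2.51 ± 0.45, 5-library adjusted p 0.0388). Magt1, of the oligosaccharyltransferase complex, did the same, from 284, 228 and 529.6 CPM to 75.1, 75.6 and 73.99 CPM (-2.21 ± 0.49 and -2.2 ± 0.45).

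The remaining lower genes were chosen for a small p and for groups that did not overlap. The sialomucin gene Cd164 had 1382, 1205 and 1493 CPM in Con and 198, 369 and 60.9 CPM in BLM, and Nabp1, a single-strand DNA binding protein, had 241, 193 and 468 CPM and 34.4, 79.98 and 26.6 CPM. Their log2 fold changes were -2.7 ± 0.64 and -2.68 ± 0.59 with all libraries and -2.26 ± 0.52 and -2.4 ± 0.51 without BLM 3. Sgk1, a kinase induced by glucocorticoids, fell from 1149, 718 and 930.2 CPM to 289.6, 343 and 163 CPM (-1.81 ± 0.45 and -1.56 ± 0.39), and Fam129a fell from 542, 427 and 246 CPM to 68.2, 22.2 and 97.9 CPM (-2.69 ± 0.66 and -3.16 ± 0.65). Inadl, a scaffold protein of tight junctions, had 59.6, 81.7 and 61 CPM in Con and 0, 0.439 and 0 CPM in BLM, at or below the floor of 3 counts in each BLM library, and was at least 186-fold lower with all libraries and at least 154-fold lower without BLM 3 (5-library adjusted p 0.0352).

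Among higher genes Ninj1, which acts in the rupture of dying cells' membranes, rose from 0.508, 0.539 and 7.45 CPM to 178, 61.9 and 52.9 CPM (5.09 ± 1.58 and 5.38 ± 1.52). Esd, an esterase, rose from 53.3, 71.1 and 57.3 CPM to 365, 493 and 184 CPM (2.52 ± 0.77 and 2.82 ± 0.72, 5-library adjusted p 0.0155). Both were above Con in all 3 BLM libraries. The tubulin gene Tuba1c rose from 195, 223 and 267 CPM to 551, 705 and 799 CPM (1.58 ± 0.46 and 1.46 ± 0.4), and Pdap1 rose from 128, 142 and 115 CPM to 285, 311 and 676 CPM (1.72 ± 0.52 and 1.21 ± 0.39), the latter with BLM 3 the highest. Tubulin genes are near-identical over parts of their sequence, which leaves the share of Tuba1c in its counts uncertain.

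The following genes had the smallest p-values among those called only without BLM 3. Crip1, a LIM domain protein of monocytes and T cells, had 176, 226 and 334 CPM in Con and 744, 1157 and 98.4 CPM in BLM, and it rose without BLM 3 (1.95 ± 0.42, against 1.44 ± 0.68 with all libraries). Pycard, the adaptor ASC of the inflammasome, had 59.6, 33.97 and 48.99 CPM in Con and 221, 185 and 0 CPM in BLM (1.51 ± 1.38 and 2.09 ± 0.55). In both BLM 1 and 2 were above all Con libraries and BLM 3 was below them. Cst3, cystatin C, had 773, 1162 and 685 CPM in Con and 2097, 3393 and 396 CPM in BLM, and the leukocyte surface peptide gene Cd52 had 309, 377 and 539 CPM and 1381, 1287 and 192 CPM. Their log2 fold changes were 1.17 ± 0.61 and 1.22 ± 0.64 with all libraries and 1.65 ± 0.4 and 1.71 ± 0.45 without BLM 3. Tmem176b (1.37 ± 0.73 and 1.89 ± 0.45), Rbm3 (1.4 ± 0.78 and 1.91 ± 0.49) and the ribosomal gene Rpl30 (1.26 ± 0.6 and 1.69 ± 0.41) rose only without BLM 3, and Clec4a3 (-2.36 ± 1.31 and -1.77 ± 0.49), Kctd12b (-2.01 ± 1.18 and -4.16 ± 1.16), Frmd4a (-2.57 ± 1.29 and -1.98 ± 0.55), Tbc1d9b (-1.12 ± 0.61 and -1.8 ± 0.51) and Prr5l (-1.06 ± 0.83 and -2.46 ± 0.7) fell. Hsp90ab1, a cytosolic chaperone, showed how far 1 library decided a value, with 2624, 2591 and 2277 CPM in Con and 1104, 1152 and 7379 CPM in BLM. It fell without BLM 3 (-1.15 ± 0.33) and lay slightly above Con with all libraries (0.36 ± 0.61).

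Other genes had most of their BLM counts in BLM 3. Of 11 tested pluripotency genes 6 rose with all libraries and 1 of 13 without BLM 3, and none fell (median 5.82 and 0.63). Tet1, a DNA demethylase of pluripotent cells, was at 0 in Con and had 2.03, 6.29 and 410.3 CPM in BLM, called in both fits and at least 433-fold higher with all libraries and at least 12.9-fold higher without BLM 3. Nanog, a transcription factor of the same cells, had 0.508, 2.16 and 1.05 CPM in Con and 1.45, 0.877 and 160.4 CPM in BLM and was called only with all libraries (5.44 ± 2.21, against -0.09 ± 2.6). Lin28a, an RNA-binding protein of early embryonic cells, was below the test's filter, with 0, 0 and 315 CPM in BLM. Peg3os, an antisense RNA, was at 0 in Con and had 19.9, 6.43 and 226 CPM in BLM, called in both fits and at least 261-fold higher with all libraries and at least 40.8-fold higher without BLM 3. Without stated strand counting its reads cannot be told apart from those of the imprinted gene Peg3. Among 75 cell cycle genes 2 rose and 1 fell with all libraries, none rose and 2 fell without BLM 3, and the median log2 fold change went from 0.74 to -0.03. The call with all libraries was lost on leaving out 1 other library for Nanog (log2 fold change 5.06 to 6.09 without Con 1, Con 2 or Con 3). The pluripotency list with 1 other library left out had 6 (without Con 1 or Con 3) to 10 (without BLM 2) called higher. The cell cycle and mitosis list with 1 other library left out had 0 (without Con 1 or Con 3) to 3 (without BLM 1 or BLM 2) called higher.

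The remaining lists of cells that a lung sort could hold had at most 2 calls each with all libraries, and in short lists even 1 call is a larger share than the 2.19% higher and 2.08% lower over all genes. In the endothelial list 1 of 21 genes fell and none rose with all libraries, and 2 fell and 1 rose without BLM 3 (median -1.0 and -0.52), with a summed level of 2322, 3112 and 2668 CPM in Con and 2584, 1229 and 419 CPM in BLM. In the T and NK cell list 2 of 21 genes fell and none rose with all libraries and 1 fell without BLM 3. The median log2 fold change of that list was -2.4 and -2.07, or -1.07 and -0.8 with genes at 0 in a group set to their bound. In the neutrophil list 1 of 15 rose and none fell with all libraries and 2 of 16 rose and 1 fell without BLM 3 (median 0.73 and 1.44). The dendritic cell list had 2 of 13 genes higher and 0 lower with all libraries, and 2 of 15 higher and 0 lower without BLM 3 (median 0.71 and 1.3). The B and plasma cell list had 0 of 12 genes higher and 2 lower with all libraries, and 0 of 12 higher and 0 lower without BLM 3 (median -2.21 and -1.63). The summed erythroid level was 171, 271 and 996 CPM in Con and 72.3, 12.9 and 79.2 CPM in BLM, and the haemoglobin gene Hba-a1, whose near-identical copy may share its reads, fell in both fits (-4.32 ± 1.65 and -3.74 ± 1.33), the only call among 5 tested erythroid genes. Omitting 1 other library ended the call with all libraries of Hba-a1 (log2 fold change -3.95 to -3.34 without Con 3 or BLM 2). The endothelial list with 1 other library left out had 0 (without Con 1) to 2 (without BLM 1) called lower. The T and NK cell list with 1 other library left out had a relative median of -3.08 (without BLM 2) to -0.08 (without Con 2), against -2.32 with all libraries, and 1 (without Con 1, Con 2, BLM 1 or BLM 2) to 2 (without Con 3) called lower. The neutrophil list with 1 other library left out had a relative median of -0.19 (without BLM 1) to 3.85 (without Con 3), against 0.81 with all libraries, and 0 (without Con 1, Con 2 or BLM 1) to 6 (without Con 3) called higher. The dendritic cell list with 1 other library left out had 0 (without Con 3) to 2 (without BLM 2) called higher. The B and plasma cell list with 1 other library left out had 0 (without Con 1, Con 2 or BLM 1) to 3 (without BLM 2) called lower. The erythroid list with 1 other library left out had a relative median of -5.51 (without BLM 1) to 0.01 (without Con 3), against -4.24 with all libraries, and 0 (without Con 3) to 2 (without Con 1 or Con 2) called lower.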

How the data were processed

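Cells gated as CD74+ and EpCAM+ were sorted from mouse lungs, and 3′ mRNA libraries (QuantSeq, oligo-dT primed) were sequenced as single 75-base reads. The authors deposited raw read counts per gene symbol, which were used here, beside normalized values that were not used. The submitters' processing notes name Bowtie2, edgeR and mm10, and the counting program and annotation are not given in the sources used here. The table held 23282 entries, and the 79 entries of 35 repeated symbols were summed to 1 row per symbol, giving 23238 symbols, of which 17480 had a count. Totals were 7005005 to 11153154 counts per library.

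Genes were filtered with filterByExpr (count minimum 10, total minimum 15), scaled by TMM and tested with the quasi-likelihood method of edgeR 4.0.16 in R 4.3.3, in 1 model of the 4 groups of the series with 12 libraries (8 residual degrees of freedom, common dispersion 2.08). The p300 knockout groups entered the filter, the TMM scaling and the estimate of the spread, but not the contrast. The contrast BLM minus Con was repeated without BLM replicate 3 (11 libraries, 7 degrees of freedom, dispersion 1.69). A call needed a fold over 1.5 and an unadjusted p under 0.05, and adjusted p-values are Benjamini-Hochberg values over all tested genes. Gene lists are given by counts and medians, with no test of a list. DESeq2 1.42.0 and limma 3.58.1 were alternatives. The statistical scripts were tested on simulated counts.

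Genes were named by rule. The first part took the 12 genes per direction with the smallest p among those called in both fits with groups that did not overlap and a mean of at least 10 CPM. The second took the 8 per direction called only without BLM 3. The third took members of the lists, and the last the sort antigens, the targeted gene and genes that check the libraries. The result for 1 further gene is not reported here. The samples compared, the gene lists and the rules were chosen with earlier results of these data known. Promoter sequences are from RefSeq (GRCm38.p6) and gene positions from GENCODE on GRCm38, and all printed genes were found there.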

Additional observations from a re-analysis of the deposited data

How the results depend on the processing

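The number of genes called between BLM and Con with all libraries (558) was 431 to 771 under other scalings, filters or handling of repeated symbols, all within 1.5 times. It was 947 by DESeq2, 2365 by limma voom with sample weights (the weight of BLM 3 was 0.034), 8471 by fold alone, 0 by adjusted p and 116 by adjusted p in DESeq2 (68 higher and 48 lower), and 292 to 767 on leaving out 1 library, the lowest without Con 1 (292) and Con 3 (357). Without BLM 3 the number (767) was 1531 in Con and BLM alone, where the common dispersion was 0.986, 989 by DESeq2, 2536 by voom, 0 by adjusted p in the model of 4 groups, 55 by adjusted p in Con and BLM alone, 173 by adjusted p in DESeq2 (71 higher and 102 lower) and 386 to 609 on leaving out 1 more library, with 483 without Con 1, 386 without BLM 1 and 437 without BLM 2. The alternatives with 55, 116 and 173 genes and the omission of 1 more library were chosen after the data were seen. Deviations of same-numbered libraries from their group means correlated at -0.04 to -0.01, and those of differently numbered libraries at -0.01 to 0.03. The BLM mean includes BLM 3, which stood apart, so this check could not settle whether the numbers pair the samples. A replicate block gave 394 calls (154 higher and 240 lower) with all libraries and 642 without BLM 3. The cause of these differences was not tested. Of 1100 list medians over 20 settings, taken against the median of all genes, 116 moved by more than the spread between replicates. That spread includes BLM 3, so this count can miss shifts in lists where BLM 3 stood apart. For the cell cycle list the spread was 2.68, and a shift from 0.82 to -0.08 without BLM 3 was not counted. In Con and BLM alone the list median against all genes went from -2.32 to -0.05 for T and NK cells (10 members tested), 2.35 to 1.08 for CC chemokines (11) and 0.98 to 0.09 for cytokines (17), and 0 of 12 CXC, CX3C and XC chemokines were called higher there, against 3 of 13. The median of all genes was -0.08 under TMM, -0.05 under DESeq2 size factors and -0.14 by library size alone. Of 2580 values of 149 named genes, 2076 kept their direction and side of the threshold, 453 lost the call, 36 gained it and 15 turned. No direction turned under another scaling. Under voom those that turned were Abca3 (0.4), Ccl6 (0.24), Marco (0.59) and Tgfb1 (0.87), none of them called. On leaving out 1 library the log2 fold change ran from -0.95 to 0.12 for Abca3, -0.27 to 0.78 for Cd74, -0.71 to 0.02 for Ep300, -2.37 to 0.24 for Epcam, -1.05 to 0.33 for Marco, -0.09 to 6.09 for Nanog, -7.11 to 0.37 for Nkx2-1 and -2.02 to 0.61 for Tgfb1. Of these only Nanog was called, and its negative value came without BLM 3. At these depths a gene under 0.216 to 0.439 CPM in a library could not be told from 0.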
